A study of Arabidopsis thaliana with 6 samples.

Results

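In *ninja-1* roots 126 probe sets of transcripts that are abundant in WT roots stood between 50.0% and 70.7% of their WT level, a decline that a 2-fold cutoff passes over. Only 15 of the 126 were lower at an adjusted p under 0.05 in the limma fit across all probe sets. Most therefore missed that threshold as well as the 2-fold cutoff. The set was selected on the measured values themselves. A probe set (the group of probes on the array that reads one transcript) entered it if its mean log2 value in WT was 8 or more, if the *ninja-1* mean was lower by at least 0.5 but less than 1 on the log2 scale, and if every *ninja-1* array lay below every WT array. These conditions held for 126 of the 6158 abundant probe sets (2.05%) and of the 22746 probe sets tested. The values of members in this comparison are therefore a description, and where calls of the fit across all probe sets are given for them, they support nothing about the set.

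Roots were compared between *ninja-1* and WT seedlings, both in the Col-0 accession and both carrying the JAZ10pro-GUSPlus (JGP) reporter, which joins the promoter of the jasmonate-induced *JAZ10* gene to a glucuronidase. Seedlings were 5 days old (5-do), untreated, and had grown horizontally on half-strength Murashige and Skoog medium at 21 °C with 14 h of light and 10 h of darkness. Each genotype had 3 biological replicates of 120 pooled roots, and each replicate was read on 1 Affymetrix ATH1 array. The mutant is represented by the *ninja-1* allele alone, and whole roots were extracted, so that fewer cells of a type and less RNA per cell cannot be told apart.

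NINJA is an adaptor protein that ties the JAZ repressors of jasmonate signalling to the TOPLESS co-repressor, and thereby helps to keep MYC-type transcription factors silent while the hormone is low. Jasmonate is known in roots for restraining growth and for turning on defence and specialised metabolism. Roots also run a steady programme of wall modification, lignin and flavonoid synthesis, lipid trafficking and surveillance for microbes.

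The 6 arrays had medians of 5.95 to 6.03 on the log2 scale over all probe sets, and correlated at 0.998 to 0.999 within a genotype and 0.994 to 0.996 between genotypes. The median difference (*ninja-1* minus WT) was 0.00 over all probe sets and −0.02 over the abundant ones. Of the 46 cell type markers listed, the annotation used here gave a probe set of their own to 4, and none of the 4 was separated between the genotypes or passed the adjusted p in limma. The root hair expansins EXPA7 and EXPA18 averaged 8.91 and 9.96 in *ninja-1* against 8.76 and 9.72 in WT, the cortex marker AT1G62500 averaged 6.81 in *ninja-1* and 6.76 in WT, and the green-tissue gene RCA averaged 10.26 in *ninja-1* and 10.16 in WT. The defining markers of the other root cell types and NINJA itself had no probe set named for them alone and are not analysed here.

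Falls were crowded towards the mild end. Of the members, 58 fell by 0.5 to less than 0.6 on the log2 scale, 29 by 0.6 to less than 0.7, 17 by 0.7 to less than 0.8, 13 by 0.8 to less than 0.9 and 9 by more than that. The median difference was −0.62 (quartiles −0.74 and −0.55), which leaves 65.0% of the WT level. Members were found at most WT levels: they made up 2.33% of the abundant probe sets with a WT mean from 8 to less than 9, 2.05% from 9, 2.07% from 10, and 1.35% of those at 11 or more. The plot of difference against WT level shows the members as a band below the main cloud, with 18 abundant probe sets lower still by 2-fold or more. Rises of the mirrored size, with every *ninja-1* array above every WT array, numbered 98.

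**Figure D1:**
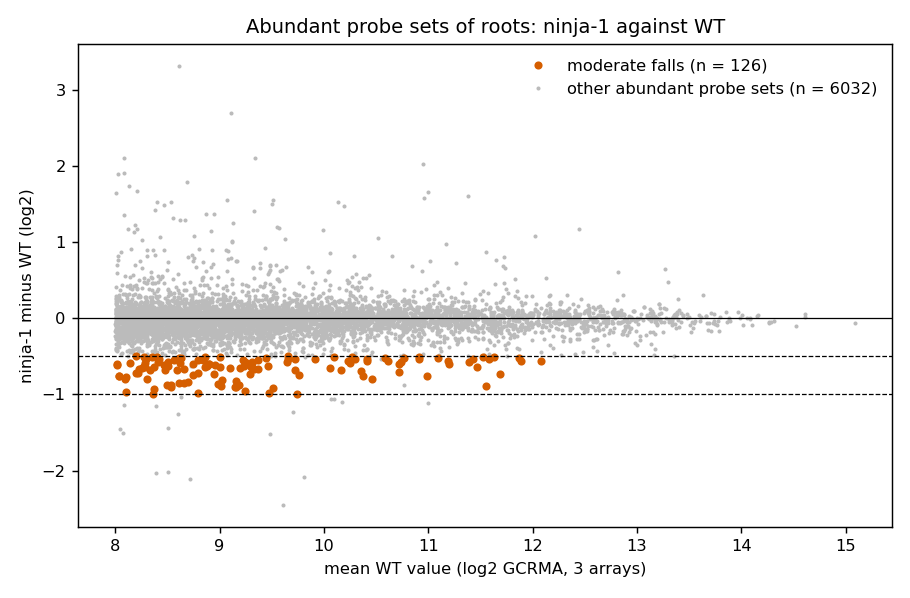
Difference between *ninja-1* and WT (log2, means of 3 arrays each) against the mean WT value (log2) for the 6158 abundant probe sets. The 126 members (orange) lie between the dashed lines at −0.5 and −1 and reach up to a WT mean of 12.1, and grey points are the other 6032 abundant probe sets.

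Read against the whole array, 15 of the 126 members (11.9%) were lower in *ninja-1* at an adjusted p under 0.05 in the limma fit across all probe sets, where 85 of 22746 probe sets (0.374%) were. The separation that the rule required was met in the downward direction by 2291 of all probe sets (10.1%) and by 1048 of the abundant ones (17.0%), and 718 abundant probe sets (11.7%) were separated upwards. Because the same contrast chose the members, nothing is read from the higher share among them. Among the 15 were CCR2, TIL, AT4G22460, AT1G51860, AT2G44940, AT1G14730, AT5G40450 and AT5G62150, which are described below. These calls depended strongly on the fit. Only 0 to 6 members were called when any 1 array was left out, 6 without moderation and 0 with the replicate number as a block. Other settings gave 16 (trend and robust settings), 20 (quantile normalization, and also array weights) and 79 (median centring). When dim probe sets were not tested, 109 were called.

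The borders of the set cut through a continuous range of values. Just inside the level limit were AT2G17710 and AT3G21680, with WT means of 8.01 and 8.02, and just outside was AT2G34610, with a WT mean of 7.99 and a difference of −0.90. At the mild end AT5G43180 (−0.5002) and AT5G02420 (−0.5013) were inside, whereas AT3G53980 (−0.4950) and AT5G25450 (−0.4944) were outside. At the steep end AT1G64590 (−0.99) was inside and AT5G48570 (−1.03) outside. The separation was narrowest in AT2G23910, whose lowest WT array exceeded its highest *ninja-1* array by 0.0179, and 5 probe sets with a fall of the right size missed it, among them AT3G45160 and AT3G61930. The gap between the genotypes was at least 0.2 in 109 members, with a median of 0.37, and was under 0.1 in 9.

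The annotation named a single gene for 64 members and a pair of genes for 1, and left 61 unnamed, a naming share (50.8%) close to the 49.6% over all abundant probe sets. The unnamed members had a median difference of −0.62 and a median WT mean of 9.15, and the single-named ones −0.62 and 9.13. Of the 64 named genes 57 carry only a locus code. A protein family was assigned from general knowledge to 44 members after their values were seen, and the grouping that follows is by these families.

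Several members, put together here after their values were seen, belong to families known for the perception of microbes or for defence. The lists drawn up by gene symbol cannot show whether such a group exists. Of the 19 probe sets for defence proteins (9 abundant) 0 were members, and of the 2 for receptor-like kinases 0. At the share of members among all abundant probe sets (2.05%), lists of this size would hold few members or none. The kinase list also lacks AT5G59680 and AT1G51860, which are described next. Of the defence proteins 0 were called lower and 2 higher in the limma fit, against 0.374% and 0.805% of all probe sets. AT5G59680, a leucine-rich repeat receptor kinase, read 7.10, 7.35 and 6.93 on the *ninja-1* arrays and 8.33, 7.88 and 8.10 on the WT arrays, a difference of −0.97. Its relative AT1G51860 read 8.29, 8.20 and 8.19 in *ninja-1* and 8.89, 8.84 and 8.86 in WT (−0.64). The 3 WT arrays of AT1G51860 lay within a few hundredths of each other, whereas those of AT5G59680 were widely spread, and in neither gene did the genotypes overlap. AT5G62150, a protein with a LysM domain, the fold that binds chitin and related sugars, averaged 8.83 ± 0.02 in *ninja-1* and 9.37 ± 0.10 in WT (SD, n = 3 each).

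Chitinases, which cut the chitin of fungal walls, were represented by a moderately and a strongly expressed gene. CHI (AT2G43570) read 7.73, 7.57 and 7.24 in *ninja-1* against 8.31, 8.08 and 8.52 in WT (−0.79). AT1G02360 read 10.73, 10.59 and 10.46 in *ninja-1* against 11.23, 11.13 and 11.21 in WT (−0.60). In both genes replicate 3 was the lowest of the *ninja-1* arrays, and the WT arrays of AT1G02360 were the tighter. The NHL family, relatives of the NDR1 protein of disease resistance, contributed AT1G65690 (−0.82) and AT1G54540 (−0.64), and AT3G48450, a RIN4-like protein, fell by 0.76 on the log2 scale. AT1G65690 read 8.08, 8.24 and 8.31 in *ninja-1* and 8.81, 9.29 and 8.98 in WT. Further members of this kind were AT4G23680, an MLP-like protein at 8.65, 8.17 and 8.02 in *ninja-1* and 9.47, 8.99 and 9.27 in WT (−0.96), and AT2G15220, a plant basic secretory protein at 7.66 ± 0.20 in *ninja-1* and 8.53 ± 0.13 in WT (−0.87). The probe set of AT2G15220 is of a kind that can bind several transcripts.

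Phenolic and wall-related genes included some of the most abundant members. AT5G64120 encodes peroxidase 71 (PRX71), a secreted enzyme that crosslinks wall polymers. It read 10.91, 10.83 and 11.11 in *ninja-1* and 11.22, 11.71 and 12.12 in WT (−0.73), so that the genotypes were separated by a narrow step and the WT arrays had the larger spread (SD 0.45, against 0.14 in *ninja-1*). CCR2, a cinnamoyl-CoA reductase that opens the lignin branch of phenylpropanoid metabolism, was steady within genotypes, at 7.34, 7.26 and 7.32 in *ninja-1* and 8.14, 7.93 and 8.21 in WT (−0.79). CHIL, a chalcone isomerase-like protein that aids flavonoid synthesis, read 10.08, 10.26 and 10.41 in *ninja-1* and 10.88, 10.86 and 10.57 in WT (−0.52). AT2G22510, a hydroxyproline-rich glycoprotein, averaged 7.56 ± 0.15 in *ninja-1* and 8.23 ± 0.08 in WT.

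Lipid transfer and surface lipid enzymes made up another group. AT4G22460, a lipid transfer protein-like gene, read 8.09, 8.22 and 8.05 in *ninja-1* and 9.07, 8.97 and 8.93 in WT (−0.87), with arrays of each genotype close together. The related AT4G33550 and AT5G13900 differed by −0.75 and −0.53. Of the GDSL lipase-like enzymes, a large secreted family that includes enzymes of cutin and suberin, AT2G23540 was the second most abundant named member: it read 11.35, 11.17 and 11.54 in *ninja-1* and 11.75, 11.85 and 12.01 in WT (−0.52). AT5G37690 of the same family differed by −0.52 at a lower level, 8.92 in *ninja-1* and 9.44 in WT. Lipid carriers were also present. TIL, a lipocalin of the plasma membrane with a part in heat and oxidative stress tolerance, read 9.58, 9.37 and 9.50 in *ninja-1* and 10.13, 10.11 and 10.25 in WT (−0.68). AT1G67360, a lipid droplet-associated protein, averaged 10.17 ± 0.11 in *ninja-1* and 10.74 ± 0.05 in WT. AT4G35750, a SEC14-like protein, averaged 9.04 ± 0.05 in *ninja-1* and 9.73 ± 0.14 in WT.

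The transcription factors among the members belonged to separate families. AT1G31050, a basic helix-loop-helix factor, read 8.22, 8.16 and 8.60 in *ninja-1* and 9.28, 9.06 and 9.13 in WT (−0.83). It was the gene of this set with a second probe set on the array, which was not used to choose it: that probe set read 5.01, 4.97 and 5.20 in *ninja-1* and 5.83, 6.01 and 5.88 in WT, a difference of −0.85, again without overlap. AT2G44940, an AP2/ERF factor, read 7.79, 7.79 and 7.83 in *ninja-1* and 8.60, 8.39 and 8.45 in WT (−0.68). WRKY6, a regulator of senescence and of phosphate starvation responses, read 8.73, 8.52 and 8.58 in *ninja-1* and 9.24, 9.03 and 9.42 in WT (−0.62). In AT2G44940 the *ninja-1* arrays agreed to within 0.03 (SD), whereas WRKY6 had an SD of 0.11 in *ninja-1* and 0.20 in WT. AT2G47890, a B-box zinc finger protein, differed by −0.51.

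Metabolic and other cellular functions were represented by 1 or 2 genes each. AT1G64590, a short-chain dehydrogenase-like enzyme, had the largest fall of the named members: it read 8.56, 8.63 and 9.06 in *ninja-1* and 9.74, 9.70 and 9.80 in WT (−0.99). AT2G44370, with a cysteine- and histidine-rich C1 domain, read 7.69, 7.52 and 7.11 in *ninja-1* and 8.36, 8.45 and 8.31 in WT (−0.93). In these genes the WT arrays were tight and the *ninja-1* arrays loose, so that the distance to WT varied with the mutant array. AT5G15950, an S-adenosylmethionine decarboxylase of polyamine synthesis, read 9.49, 9.41 and 10.07 in *ninja-1* and 10.35, 10.13 and 10.28 in WT (−0.59), with replicate 3 of *ninja-1* close to the WT arrays. AT5G12110, a subunit of translation elongation factor eEF1B, averaged 8.44 ± 0.28 in *ninja-1* and 9.10 ± 0.08 in WT. AT1G14730, of the cytochrome b561 family of membrane electron carriers, averaged 7.64 ± 0.07 in *ninja-1* and 8.27 ± 0.09 in WT. Proteolysis was represented by the aspartyl proteases AT5G48430 (−0.65) and NANA (−0.57), and detoxification by the glutathione transferase GSTU28 (−0.53).

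The most abundant named member was AT3G57010, a strictosidine synthase-like gene, at 11.34, 11.49 and 11.75 in *ninja-1* and 11.97, 12.13 and 12.16 in WT (−0.56). AT2G45820, a remorin of the plasma membrane, read 10.77, 10.93 and 10.99 in *ninja-1* and 11.46, 11.42 and 11.40 in WT (−0.53), and its WT arrays were the closest together of the 10 most abundant. AT5G40450, known for a part in the organization of the vacuole, read 9.87, 9.85 and 9.83 in *ninja-1* and 10.47, 10.32 and 10.45 in WT (−0.56). Among the most abundant members without an assigned family were AT1G73120 (10.22 in *ninja-1* and 10.99 in WT), AT1G56320 (10.57 in *ninja-1* and 11.09 in WT) and AT2G37750 (10.01 in *ninja-1* and 10.72 in WT), and AT4G17215 was among those with the largest falls (7.85 in *ninja-1* and 8.69 in WT). The plot of values by array sets these genes side by side.

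**Figure D2:**
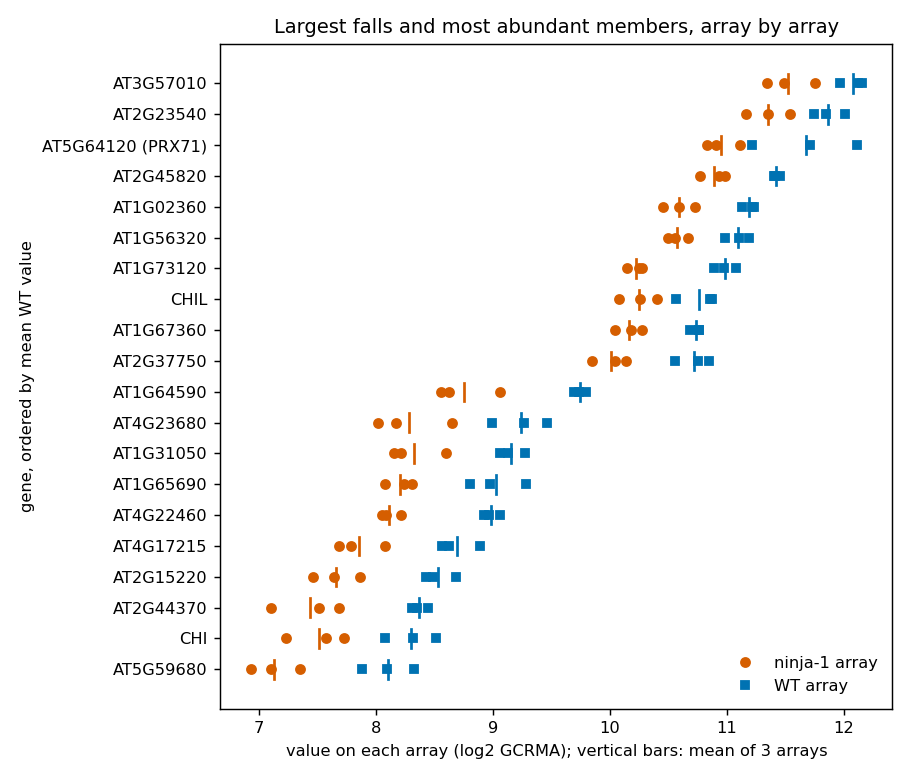
Value on each array (log2) of the 20 members that had the largest falls or the highest WT level among those named by a single gene, ordered by WT mean; circles are *ninja-1* arrays, squares WT arrays and vertical bars the means of 3. In each row every circle lies left of every square; the step is narrow for PRX71 and wide for AT1G64590.

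The remaining members with an assigned family were single genes or pairs. The probe set shared by AT1G30730 and AT1G30720, neighbouring berberine bridge enzyme-like genes that it cannot tell apart, read 7.70, 7.53 and 8.04 in *ninja-1* and 8.31, 8.59 and 8.94 in WT (−0.85). AT5G54020, the other C1 domain protein, averaged 7.61 ± 0.15 in *ninja-1* and 8.25 ± 0.03 in WT. The small membrane proteins AT2G24040 and AT1G29520 differed by −0.59 and −0.51, and AT5G25560, a RING zinc finger protein, by −0.59. AT5G02420, which encodes a small inhibitor of cyclin-dependent kinases, averaged 7.69 ± 0.19 in *ninja-1* and 8.19 ± 0.06 in WT, and AT2G23910, a short-chain dehydrogenase-like enzyme, 8.35 ± 0.13 in *ninja-1* and 8.86 ± 0.38 in WT.

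A further 21 single-named members had no assigned family, among them AT4G39675, AT1G19020 and AT5G01740, with differences of −0.77, −0.75 and −0.76. AT1G19020 read 9.67, 9.56 and 9.64 in *ninja-1* and 10.36, 10.13 and 10.64 in WT, and AT5G01740 read 7.45, 7.48 and 6.90 in *ninja-1* and 8.36, 8.13 and 7.60 in WT. In AT5G01740 replicate 3 was the lowest array of both genotypes, and the lowest WT array was just above the highest *ninja-1* array. The unnamed members ran from −0.9992 (read at 7.70, 7.07 and 7.32 in *ninja-1* and 8.33, 8.44 and 8.32 in WT) to −0.50, and reached a WT mean of 11.9.

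Most of the groups of root functions that were listed by gene symbol held no member, although symbols reached only a small part of the array. Among histones and chromatin proteins 0 of 24 probe sets were members (10 abundant), among expansins and xyloglucan enzymes 0 of 30 (14 abundant), among ubiquitin and proteasome genes 0 of 66 (23 abundant), in central carbon metabolism 0 of 24 (13 abundant) and in vesicle traffic 0 of 29 (13 abundant). Members stood in the lists of peroxidases (PRX71, of 7), redox and detoxification genes (GSTU28, of 30), phenylpropanoid and lignin genes (CCR2, of 7), glycosyl hydrolases (CHI, of 41) and transcription factors (WRKY6, of 87). The lists missed members that were given a family above, so these are not full tallies. Missed were the chitinase AT1G02360 and the transcription factors AT1G31050, AT2G44940 and AT2G47890. The protease list lacked the aspartyl proteases AT5G48430 and NANA, and the ubiquitin list lacked the RING zinc finger protein AT5G25560. A list of translation factors lacked the elongation factor subunit AT5G12110. At the share of members among all abundant probe sets (2.05%), lists of this size would hold few members or none, so nothing is read from the empty ones. The flavonoid list of 5 held CHIL and, through a shared abbreviation, CHI, which is the chitinase described above. Over all probe sets the limma fit called 0.374% lower and 0.805% higher at an adjusted p under 0.05. In the lists that held members it called 1 phenylpropanoid gene lower, which was CCR2, 1 peroxidase higher, 2 redox genes higher, 2 glycosyl hydrolases higher, and 0 flavonoid genes and 0 transcription factors in either direction. Of the lists that held no member by symbol, it called 1 gene lower and 1 higher in the protease list. It called 1 lower among abscisic acid, cold and dehydration genes, and 4 higher among other transporters. The fit also called 2 higher each among mineral nutrient transporters and defence proteins. In nitrogen and sulfur assimilation, secretory protein folding, cytochromes P450 and glycosyltransferases it called 1 higher each.

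The genes beside the members, which the rule did not touch, were measured as well. Of the genes next to a named member in chromosome order 69 were measured, and their median difference was 0.00. Only 17 of the 69 were abundant. Many others were at or near the lowest values on the arrays in both genotypes, where differences are compressed towards 0.00. Of the 69 neighbours 8 were separated downwards and 5 upwards, where 10.1% and 7.75% of all probe sets were. By 0.5 or more 0 neighbours were lower and 2 higher. The adjusted p in limma was passed by 0 in either direction, where 0.374% of all probe sets were called lower and 0.805% higher. At those shares few or none of 69 would be called, so nothing is read from these counts. In families that lie side by side the neighbour could differ from the member in direction or only in size. AT2G44380, beside AT2G44370, averaged 9.25 in *ninja-1* and 9.18 in WT (0.07). AT3G57020, beside AT3G57010, averaged 11.74 in *ninja-1* and 11.89 in WT (−0.16), with every *ninja-1* array below every WT array. AT1G51850, beside AT1G51860, and AT4G23670, beside AT4G23680, were also lower (−0.12 and −0.14), but their genotypes were not separated. AT5G64110, a peroxidase gene beside PRX71, averaged 6.60 in *ninja-1* and 4.84 in WT, a difference of 1.76 with every *ninja-1* array above every WT array (adjusted p = 0.17 in limma). AT3G48460, beside AT3G48450, averaged 4.75 in *ninja-1* and 4.14 in WT (0.61), also without overlap. The members were chosen for their fall and the neighbours were not, so the contrast between them is a description.

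**Figure D3:**
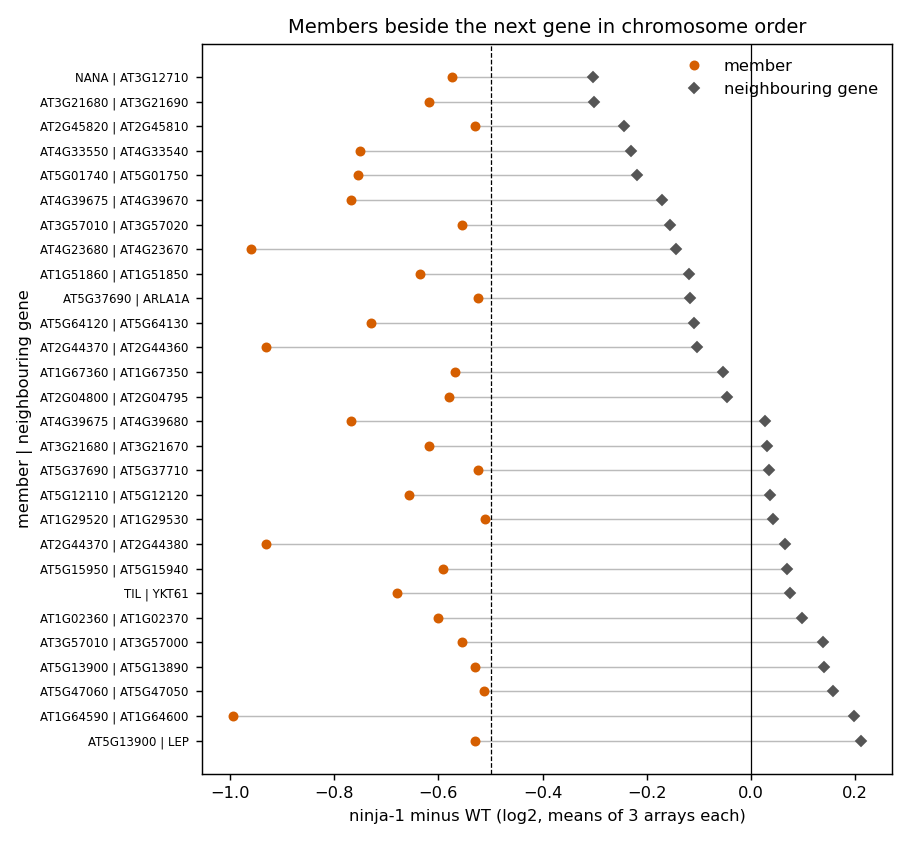
Difference between *ninja-1* and WT (log2, means of 3 arrays each) for members (circles) and for the measured gene next to each in chromosome order (diamonds), for the 28 neighbours with a WT mean of 6 or more. The neighbours lie between −0.30 and 0.21, to the right of the dashed line at −0.5 that every member lies left of; AT5G64110, with its low WT level, is not drawn.

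All 6 arrays took part in the choice, so their values for the members are a description. Relative to the WT mean of each member, the median stood at −0.64, −0.69 and −0.58 on *ninja-1* replicates 1, 2 and 3, and at 0.01, −0.03 and 0.00 on the WT arrays. Replicate 3 of *ninja-1* was the highest of its genotype in 64 of the 126 members, replicate 1 in 39 and replicate 2 in 23. The SD pooled over both genotypes had a median of 0.143 among members and 0.0986 among all abundant probe sets.

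To see the falls in arrays that played no part in the choice, the same rule was applied to 2 arrays of each genotype and the difference was read in the remaining pair, in all 9 combinations. Each choice found 118 to 157 probe sets, of which 93 to 106 were among the 126. In the arrays left out the median difference of the chosen probe sets was −0.65 to −0.36, whereas it was −0.63 to −0.59 in the arrays used. Between 90.4% and 100.0% of them were lower in the *ninja-1* array left out than in the WT array left out, against 48.5% to 61.0% of all abundant probe sets. A fall of 0.5 or more was kept by 35% to 72% of them, and was seen in 2.45% to 4.29% of all abundant probe sets. The falls were smallest when replicate 3 of *ninja-1* was the array left out (medians −0.36 to −0.47) and largest for replicate 2 against replicate 1 of WT. The 9 combinations share arrays and are not independent of each other. Each share counts probe sets within the pair of arrays left out. Probe sets are not replicates, so these ranges are a description.

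**Figure D4:**
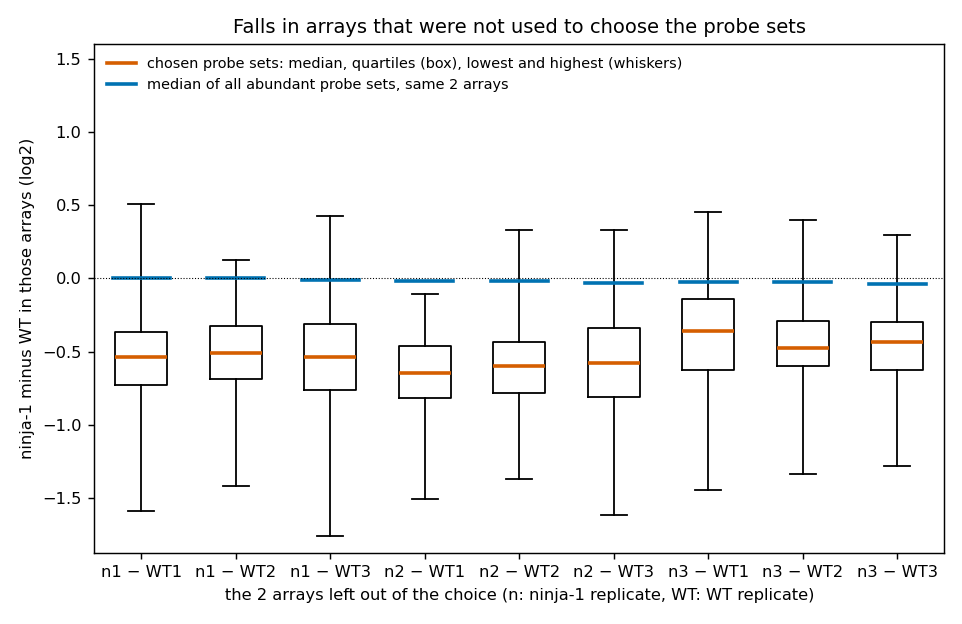
Difference between the *ninja-1* and the WT array left out of the choice (log2), for the probe sets chosen in the other 4 arrays, in 9 combinations; orange lines are medians, boxes quartiles and whiskers the lowest and highest values, and blue lines the medians of all abundant probe sets. The orange medians lie between −0.65 and −0.36 and the blue ones between −0.04 and 0.01.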

How the data were processed

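The deposited table holds log2 expression values that the authors made from 6 ATH1 arrays by GCRMA (version not given in the sources used here), which corrects the background by probe sequence, normalizes between arrays and pulls dim probe sets towards a common floor, where differences are compressed. No further scaling was applied. The 64 control probe sets were left out, as were from the member set the 150 probe sets numbered 245050 or lower. Genotypes were compared with limma 3.58.1 in R 4.3.3 (lmFit and eBayes, genotype only, Benjamini-Hochberg over 22746 probe sets, two-sided, adjusted p under 0.05). The fit was first tested on simulated data. The simulated falls were larger than those of most members, so that test does not cover falls as mild as theirs. Genes are named from GEO's platform annotation, with symbols updated through gene IDs in the RefSeq gene table; no sequence is shown. The members, lists and rule were chosen with earlier results of these data known. Named by rule were the 10 largest falls, the 10 highest WT levels, members of lists with at least 2, and the probe sets at each limit, and all others were named after their values were seen. With 3 arrays per genotype the spread is estimated on few values.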

Additional observations from a re-analysis of the deposited data

How the results depend on the processing

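The member count of 126 became 180 with a WT mean of at least 7, 69 with at least 9, and 131 without the separation. It was 99 after median centring, 121 after quantile normalization, 124 without probe sets that can bind several transcripts, and 123 to 148 when 1 array was left out. With the brightest probe set of each single-named gene it was 64, because only the 61 unnamed members and the gene pair were dropped. With the limit set on the mean of all 6 arrays, an alternative chosen after seeing the data, it was 106.

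The limma counts depended on the settings far more. The members called (15) and the probe sets called lower (85) became 6 and 30 without moderation, 109 and 497 when only probe sets above 4 in at least 3 arrays were tested, 79 and 306 after median centring, 16 and 89 with trend and robust settings, and 20 and 96 with quantile normalization as well as with array weights. Leaving out 1 array gave 0 to 6 members and 17 to 60 probe sets; the lowest counts of both came without *ninja-1* replicate 2. The filter both tests fewer probe sets and refits the model without the dim ones. The cause was not tested for any of the settings.

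With the replicate number as a block, 0 members and 0 probe sets passed (lowest adjusted p 0.0601 in limma), and 112 members, of 1706 probe sets in all, were lower at an unadjusted p under 0.05, which the choice of members favours. The labels describe no pairing. Deviations of same-numbered arrays correlated at 0.0949, 0.0502 and 0.1497, and those of other pairs at −0.211 to 0.152. These few values cannot tell whether same-numbered samples were handled together.

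The differences of the 65 named members (64 single genes and 1 pair) ran from −0.31 to −1.15 over 585 recomputed values, whose sign the required separation largely fixes. Transcripts with a WT mean below 8 were not described, and dim probe sets limit what can be said of them.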
